A study of Moricandia suffruticosa and Brassica napus with 23 samples.

Results

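Oilseed rape (Brassica napus) carries 2 subgenomes, and the values described here are those of gene pairs with 1 copy on an A chromosome and 1 copy on the C chromosome of the same number, in leaf. A pair was an Arabidopsis locus with exactly 1 gene named BnaA and 1 named BnaC in the table of values, with no other gene of that locus and with equal chromosome numbers. Of 21772 loci in the table, 6017 had exactly 1 A and 1 C gene, and 2619 of those had both on chromosomes of the same number. A level of at least 1 FPKM on average over the 9 libraries in either copy was reached by 1791 pairs, which are 3582 of the 101040 genes listed. FPKM is a count of reads per kilobase of coding sequence, scaled to the reads assigned in the library. Of the other 828 pairs, 215 were at 0 in both copies in all 9 libraries. The level was the only measured value used to choose pairs: 1373 passed with both copies, 235 through the A copy alone and 183 through the C copy alone. Pairs just outside had 0.986 (MSRB3), 0.988 (sks4) and 0.996 FPKM (AT4G05220) in the higher copy, and the pairs just inside, AT4G10650, AT2G03280 and AT2G28620, had 1.0 FPKM.

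Brassica napus is an allotetraploid, a species that arose when a plant with the A genome of Brassica rapa crossed with a plant with the C genome of Brassica oleracea and both genomes were kept. Corresponding genes of the subgenomes are called homoeologs, and they usually encode nearly the same protein. Homoeologs can be used unequally in a tissue, can respond differently to stress, and can be lost or replaced by each other when chromosomes of the subgenomes pair and exchange stretches.

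Leaf polyadenylated RNA came from soil-grown plants of 35 days, kept at 25 °C under 16 h of light and 60% humidity, with 3 libraries in each of 3 groups. Controls were untreated, drought plants had no water for 3 days, and heat plants stood at 40 °C for 3 h. The labels give no genotype beyond a code shared by all 9 samples, and do not state if replicates are different plants or repeat libraries. A p-value therefore measures the spread of these replicates, which may be only technical. A further 14 samples of the 23 in the series, from Moricandia suffruticosa, were not analysed here.

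Assigned reads were inferred from the steps between the values, which were taken as FPKM. They came to 12173804 to 12934922 per library, and 1 read on 1 kb was worth 0.0773 to 0.0821 FPKM. The mean number of reads over both copies of a pair, inferred in the same way, was 175 at the median pair and lay between 71.0 and 415 at the quartiles. Mesophyll marker loci summed to 34210 to 34735 FPKM in control, 25435 to 26257 in drought and 31489 to 32287 in heat. Guard cell loci summed to 104 to 110, 63.8 to 75.9 and 116 to 127 FPKM, and phloem loci to 961 to 1033, 865 to 885 and 1126 to 1164, in the same order. The part of these differences in the A minus C shifts was not tested. Of the other organs, 3 of 4 root, 2 of 5 flower and 3 of 4 seed marker loci stayed under 1 FPKM, with seed loci at 21.6 to 24.8 FPKM in heat against 1.60 to 3.05 in control. Heat-shock genes followed the heat label only in part. The copies of HSFA2, the heat-induced heat-shock factor, summed to 14.2 to 17.9 FPKM in control, 419.4 to 450.6 in drought and 6.90 to 9.06 in heat. HSP101, the disaggregase needed for heat tolerance, summed to 88.7 to 95.8 FPKM in control, 2057 to 2291 in drought and 145.5 to 148.9 in heat. HSP17.6C, a small heat-shock protein, was highest in heat, at 90.14 to 95.43 FPKM in control, 7288 to 7982 in drought and 12885 to 13516 in heat. RAB18, a dehydrin of water-stressed tissue, was at 292 to 323 FPKM in drought against at most 1.72 in the other groups. Drought and heat below are the libraries labelled so.

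In control leaves the subgenomes were balanced at the median over all pairs, while single pairs were often far from balance and chromosomes differed. The difference used throughout is log2(A + 1) minus log2(C + 1) within a library, in FPKM. It had a median over pairs of 0, 0.01 and 0.01 in the 3 control libraries, and A was above C in 49.5% to 50.5% of pairs. The mean control difference lay between -0.70 and 0.81 at the quartiles and between -1.80 and 2.99 at the 5th and 95th percentiles. By chromosome its median ran from -0.51 on chromosome 1 to 1.13 on chromosome 2. A pair was called where limma gave an adjusted p under 0.05 and a difference of at least 1 in size. The A copy was called higher in 378 pairs, which is 21.1% of those tested, and the C copy in 300, which is 16.8%, together 678 pairs or 37.9%. The A side held most of the extreme pairs, with 90 pairs at a difference of at least 3 against 17 on the C side. In 200 of the 378 A-side pairs the C copy was under 1 FPKM in control, and in 44 it was at 0 in all 3 control libraries. On the C side the A copy was under 1 FPKM in 91 of 300 pairs and at 0 in 9. Among the 1373 pairs with both copies at 1 FPKM or more, 205 were called on the A side and 225 on the C side, so that the excess on the A side turned round.

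**Figure D1:**
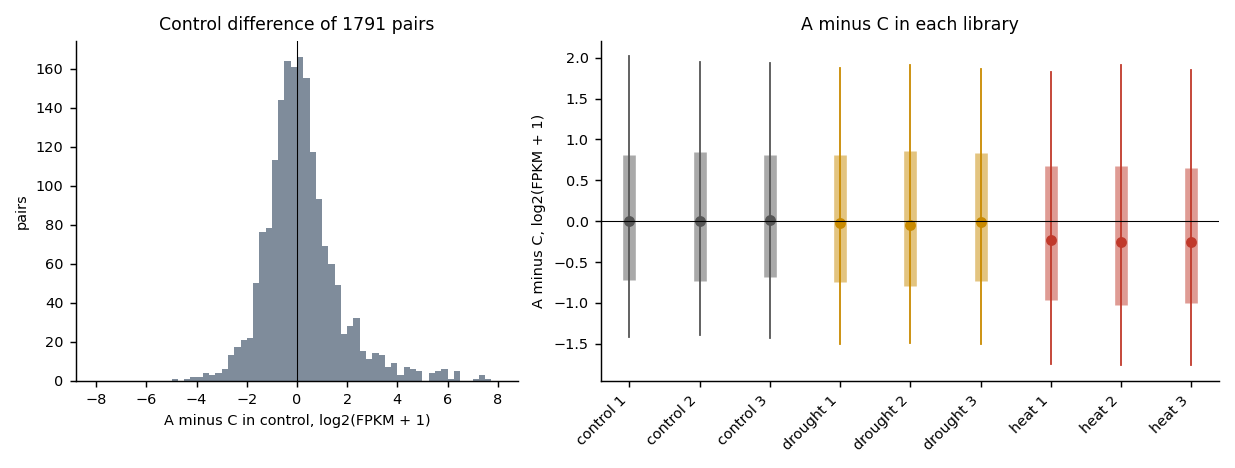
Left, the number of pairs (vertical axis) by mean A minus C difference in control (horizontal axis, log2 of FPKM + 1). Right, A minus C over the 1791 pairs in each of the 9 libraries, with points at the median, thick bars between the quartiles and thin lines between the 10th and 90th percentiles. Control and drought medians lie between -0.05 and 0.01 and heat medians between -0.26 and -0.23, and the histogram has its longer tail on the A side.

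Pairs with a C copy close to silence led the A side. STN8, a thylakoid kinase that phosphorylates photosystem II proteins, had 179, 174 and 173 FPKM from A (BnaA03g00100D) in the 3 control libraries and 0, 0.055 and 0 FPKM from C (BnaC03g71310D), a difference of 7.44 ± 0.08 (SE, n = 3; limma adjusted p = 1.3e-15). The A copy was far above the C copy in all 9 libraries. SQE3, a squalene epoxidase of sterol synthesis, had 193, 185 and 200 FPKM from A (BnaA01g00280D) and 0.203, 0.302 and 0.253 from C (BnaC01g01280D), a difference of 7.27 ± 0.09. AT5G01650, of the tautomerase family, had 206 ± 7.78 FPKM (SD, n = 3) from A against 0.477 ± 0.120 from C. The other 5 pairs of the 8 with the largest A-side difference were MES18, AT5G25940, SK2, VSP2 and AT4G40042, with differences of 6.29 to 7.39. The largest differences and shifts named here and below are among called pairs with a known description and at least 10 FPKM in the highest mean. Control libraries also had to lie on the same side, and treated libraries beyond the control libraries.

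C-side differences were smaller. PDX1.1, an enzyme of vitamin B6 synthesis, had 208, 213 and 206 FPKM from C (BnaC04g45760D) in control and 8.03, 5.4 and 5.93 from A (BnaA04g21870D), a difference of -4.83 ± 0.10 (n = 3; limma adjusted p = 5.1e-13). KT1, a potassium channel known in Arabidopsis as AKT1, had 81.0, 81.7 and 79.6 FPKM from C (BnaC04g37620D) and 3.26, 3.17 and 2.83 from A (BnaA04g14740D), a difference of -4.32 ± 0.10. PEX19-1, which helps to insert peroxisome membrane proteins, had 20.0 ± 1.70 FPKM from C and 0.263 ± 0.302 from A. Its A gene was listed much shorter, with a coding length of 399 bases against 735 in C. Identity to the Arabidopsis protein was 70% in A and 80.9% in C. The remaining 5 of the 8 largest were AT4G32900, AT4G33540, AT1G18360, AT3G15970 and AT2G38025, at -4.11 to -3.59. In all 8 the C copy stood above the A copy in each control library.

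The side of a pair was mostly kept under stress. Calls on the A and the C side were 386 (21.6%) and 339 (18.9%) in drought and 345 (19.3%) and 433 (24.2%) in heat. Of 378 A-side and 300 C-side pairs in control, 261 and 199 were called on the same side in all 3 groups. No pair went from a call on one side in control to a call on the other in drought. In heat 5 pairs went from A to C and 1 from C to A. Coding lengths of the copies were within 10% in 1567 pairs (87.5%) and equal in 650. Of pairs with lengths within 10%, 36.8% were called in control, against 45.1% of the 224 pairs with lengths further apart, and 59 of those 101 called pairs had the longer copy higher. Both subgenomes were alike in distance from Arabidopsis, with a median protein identity of 84.4% in A copies and 84.3% in C copies.

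Drought moved the balance of few pairs. The A minus C difference shifted towards A in 34 pairs (1.9% of those tested) and towards C in 58 (3.24%), together 92 (5.14%), by limma with an adjusted p under 0.05 and a shift of at least 1. The median over pairs was -0.03, -0.05 and -0.01 in the drought libraries, a change from control of -0.04 with an exact two-sided permutation p of 0.1, the smallest that 3 against 3 libraries allow. This change had the opposite sign, 0.01, without the pairs of chromosome 3 (exact permutation p = 0.5). The 3 drought values did not overlap the 3 control values in 654 pairs (36.5%). In 13 of the 58 shifts towards C the C copy stayed under 0.5 FPKM in all control and drought libraries, so that the shift is a fall of the A copy. With a pseudocount of 0.1 in place of 1, 25 of the 34 and 49 of the 58 were still called.

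Iron storage gave the largest drought shift. FER1, a plastid ferritin, had 7.52, 10.5 and 7.91 FPKM from A (BnaA03g00260D) in control and 672, 681 and 745 in drought. Its C copy (BnaC03g00160D) had 0.103, 0.510 and 0.103 FPKM in control and 0.215, 0.318 and 0.205 in drought. The A copy rose far above its control range while the C copy stayed within it, a shift of 6.17 ± 0.13 (n = 3 against 3; limma adjusted p = 1.6e-11). In KT1 the shift of 3.71 ± 0.14 towards A came with a fall of the C copy from 80.8 ± 1.03 to 2.33 ± 0.226 FPKM, beside 3.09 ± 0.228 and 1.17 ± 0.0790 from A. The C copy fell most and remained the higher one in each drought library. CA2, a carbonic anhydrase, had 646, 650 and 648 FPKM from A (BnaA02g02290D) in control and 407, 393 and 401 in drought. Its C copy (BnaC02g05730D) went from 49.7, 42.7 and 46.8 to 6.95, 6.34 and 7.52 FPKM, a called fall, while the change of A was not called, and the shift was 1.88 ± 0.10 (adjusted p = 9.1e-08).

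AT2G23520 and AT2G39000 began in balance and left it. AT2G23520, of the pyridoxal phosphate-dependent transferases, had 2.18 ± 0.180 FPKM from A and 2.12 ± 0.173 from C in control, then 19.6 ± 0.558 and 2.37 ± 0.226 in drought. AT2G39000, an acyl-CoA N-acyltransferase, had 7.35 ± 1.46 and 7.30 ± 0.882 FPKM in control and 69.6 ± 0.897 and 13.9 ± 1.52 in drought. Their shifts were 2.58 ± 0.17 and 2.25 ± 0.19. The other 5 of the 10 largest shifts towards A, in AT3G03270, AT5G66560, PP2-A14, AT4G01040 and ELF4-L1, were 1.4 to 2.18. AT3G03270 was no longer called with a pseudocount of 0.1 (adjusted p = 0.313).

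Towards C, the largest drought shift belonged to a pair with only 1 copy seen. MES18, a methyl esterase, had 167, 163 and 170 FPKM from A (BnaA02g07740D) in control and 7.78, 7.27 and 7.61 in drought, with its C copy (BnaC02g10800D) at 0 in all 9 libraries, and its shift of -4.29 ± 0.12 is the fall of A. AAC3, a mitochondrial ADP/ATP carrier, was the reverse case. Its C copy (BnaC08g13040D) had 0.208, 0.413 and 0.555 FPKM in control and 14.9 to 16.4 in its 3 drought libraries, while the A copy (BnaA08g13730D) had at most 0.138, a shift of -3.49 ± 0.19 (n = 3 against 3; limma adjusted p = 1.0e-07). FUC95A, a fucosidase of the cell wall, had 23.7 ± 1.64 FPKM from C in control and 108 ± 4.16 in drought, against 3.06 ± 0.498 and 2.02 ± 0.363 from A. In AAC3 and FUC95A the C copy rose beyond its control range in every drought library, and the A copy stayed low.

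The remaining pairs of this group, except NPC3, fell mainly through A. NRT2.7, a nitrate transporter of the vacuole membrane in Arabidopsis seed, fell from 204 ± 3.79 to 8.55 ± 1.09 FPKM in A and went from 6.54 ± 0.411 to 0.658 ± 0.0602 in C, a shift of -2.25 ± 0.13. LOX4, a lipoxygenase that begins jasmonate synthesis, had 47.9 ± 0.650 and 3.06 ± 0.331 FPKM from A in control and drought and 4.76 ± 0.805 and 0.682 ± 0.234 from C. VSP2, SK2, TKL, DIN9 and NPC3 had shifts of -2.71 to -1.75. In control and drought the C copy was at 0 FPKM in DIN9 and at most 0.182 in SK2, so that their shifts are falls of A. In NPC3, a phospholipase, both copies fell in a like ratio, from 20.7 ± 0.109 to 1.81 ± 0.276 FPKM in A and from 1.64 ± 0.335 to 0.138 ± 0.0326 in C. VSP2 and NPC3 were not called with a pseudocount of 0.1 (adjusted p = 0.106 and 0.388).

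**Figure D2:**
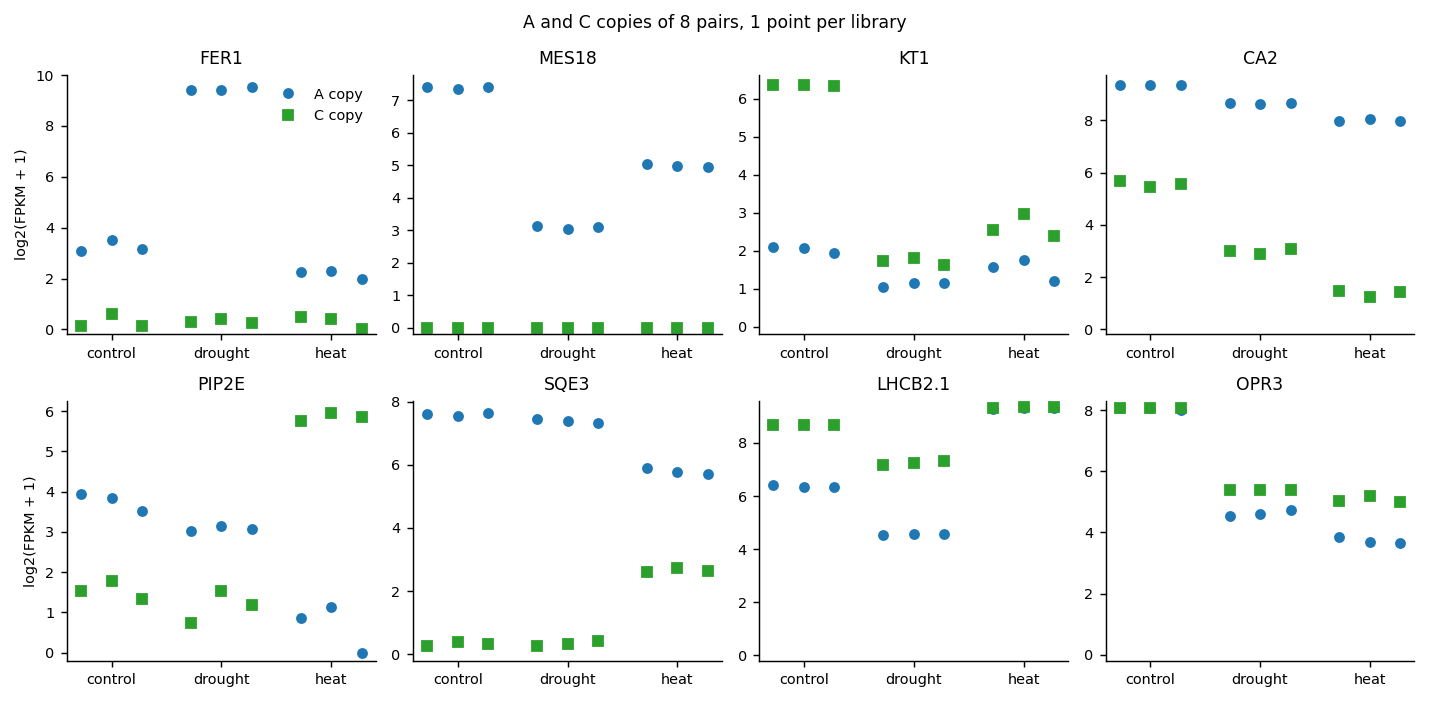
Level of the A copy (circles) and the C copy (squares) of 8 pairs in each of the 9 libraries, on the log2(FPKM + 1) scale (vertical axis), grouped by treatment (horizontal axis, 3 libraries each). FER1 rose in A in drought, MES18 has a C copy at 0 throughout, PIP2E changed its higher copy in heat, and the copies of LHCB2.1 met in heat at 635 and 644 FPKM on average.

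Heat moved more pairs, and over all pairs mostly towards C, though not on every chromosome. The shift was towards A in 77 pairs (4.3% of those tested) and towards C in 231 (12.9%), together 308 (17.2%), called as in drought. The median A minus C over pairs was -0.23, -0.25 and -0.26 in the 3 heat libraries, below all 3 control libraries, and A was above C in 40.8% to 41.9% of pairs. The change from control was -0.25, with an exact two-sided permutation p of 0.1, the smallest possible, and it was -0.18 without the pairs of chromosome 3. The 3 heat values did not overlap the 3 control values in 990 pairs (55.3%). Of the 231 shifts towards C, the A copy was called lower in 85 and the C copy called higher in 104, and neither was called in 55. Of the 77 towards A, the A copy was called higher in 44 and the C copy lower in 24. In 16 of these 77 the C copy stayed under 0.5 FPKM in all control and heat libraries. Of the 231 towards C, the C copy did so in 14 and the A copy in 9. Both shifts are taken against the same 3 control libraries. The 1657 pairs of the table at the same level whose copies lie on chromosomes of different number had medians of -0.15 to -0.14 in control and -0.18 to -0.16 in heat.

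PIP2E, a water channel of the plasma membrane, changed its main copy in heat. The A copy (BnaA03g18300D) had 14.3, 13.2 and 10.5 FPKM in control and 0.803, 1.20 and 0 in heat. The C copy (BnaC03g21800D) went from 1.91, 2.43 and 1.54 to 52.9, 61.1 and 56.5 FPKM. Neither copy's heat values overlapped its control values, and the shift was -7.40 ± 0.26 (n = 3 against 3; limma adjusted p = 5.1e-10). In drought the same pair kept A above C, at 7.45 ± 0.376 and 1.27 ± 0.603 FPKM.

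GSTF10, a glutathione S-transferase, went from 29.0 ± 3.92 to 5.04 ± 0.443 FPKM in A and from 2.54 ± 0.315 to 7.42 ± 0.438 in C, a shift of -3.56 ± 0.15. RS41, a serine and arginine-rich splicing factor, went from 21.6 ± 0.421 to 8.07 ± 0.664 in A and from 3.47 ± 0.705 to 12.7 ± 0.550 in C. In both pairs A was higher in every control library and C in every heat library. AT5G57100, a nucleotide-sugar transporter, and AT5G51570, of the prohibitin-domain family, had near-equal copies in control and shifts of -3.22 ± 0.19 and -2.97 ± 0.16. AT5G39840, a putative mitochondrial RNA helicase, had 2.52 ± 0.161 FPKM from C in control and 28.1, 32.7 and 29.3 in heat, with A at 2.03 ± 0.234 and 2.25 ± 0.640. SQE3 had 58.6, 53.2 and 51.4 FPKM from A in heat and 5.13, 5.71 and 5.19 from C, so that the C copy passed 1 FPKM in the heat libraries alone, with a shift of -4.15 ± 0.12 (adjusted p = 1.2e-10). AT4G36390, AT5G52030 and VSP2 completed the 10 largest among described pairs at 10 FPKM or more, with shifts of -3.42, -2.97 and -3.16. AT5G52030 shifted through A alone, its C copy at most 0.270 FPKM in any library. VSP2 was not called with a pseudocount of 0.1 (adjusted p = 0.105).

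Among the shifts towards A, LHCB2.1 ended in balance. This light-harvesting protein of photosystem II had 83.6, 80.9 and 79.7 FPKM from A (BnaA03g37990D) in control and 627, 636 and 643 in heat. Its C copy (BnaC03g44110D) went from 410, 405 and 409 to 637, 649 and 645 FPKM, a shift of 2.29 ± 0.04 (n = 3 against 3; limma adjusted p = 6.7e-13). In drought both copies were below control, at 22.5 ± 0.486 and 150 ± 7.10 FPKM. AT5G38130, of an acyltransferase family, had the largest shift, 4.98 ± 0.19, with A at 0.215 ± 0.208 in control and 12.8 ± 0.191 in heat and C at 2.95 ± 0.640 and 0.418 ± 0.00650. AT5G13410, an FKBP-like isomerase, rose in A from 46.2 ± 2.43 to 141 ± 3.24 FPKM and fell in C from 3.42 ± 0.812 to 0.312 ± 0.109. A/N-InvC, a neutral invertase that splits sucrose, moved through C alone, from 34.6 ± 1.52 to 6.78 ± 0.534 FPKM, with A at 4.57 ± 0.543 and 4.81 ± 0.511. CA2 had 255 ± 8.77 FPKM from A and 1.61 ± 0.243 from C in heat, a shift of 2.84 ± 0.10. SUVH4, a histone methyltransferase, had 0.648 ± 0.310 FPKM from A in control and 10.6 ± 0.850 in heat, and its C copy at most 0.683. KT1, AT2G46580, AT2G26190 and AT3G24730 had shifts of 1.88 to 3.20. The C copy of AT2G46580 had at most 0.134 FPKM in any library, so that its shift is a rise of A.

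Heat shifts were not spread evenly over the chromosomes. By whole chromosome, the share of pairs called towards C was highest on chromosomes 3 (25.2%) and 4 (22.3%) and lowest on chromosome 7 (3.5%). Chromosomes 2, 5 and 7 had more calls towards A than towards C, at 19 against 16, 13 against 9 and 4 against 3. Their median heat shifts were 0.05, 0.04 and 0.16, and those of the other chromosomes were below 0. Pairs were taken in the order of the A gene number and cut into windows of 10 neighbours, 174 in all. Each group is its own set of samples, so that treatment and any other difference between the plants of the groups cannot be told apart. Genes of a window are not independent of each other. The windows below were picked for their values, so that their medians and their shares called are descriptions. The median heat shift was below 0 in 118 windows, at most -0.5 in 39 and at least 0.5 in 8. No window had a median drought shift of 0.5 in size. Runs of at least 3 consecutive windows at or beyond 0.5 occurred 4 times in heat, all towards C, on chromosomes 2, 3, 4 and 8. The runs held 300 pairs, 126 of them called towards C (42.0%) and 2 towards A. Outside them, 105 of 1491 pairs were called towards C (7.0%) and 75 towards A (5.0%), with a median heat shift of -0.10.

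**Figure D3:**
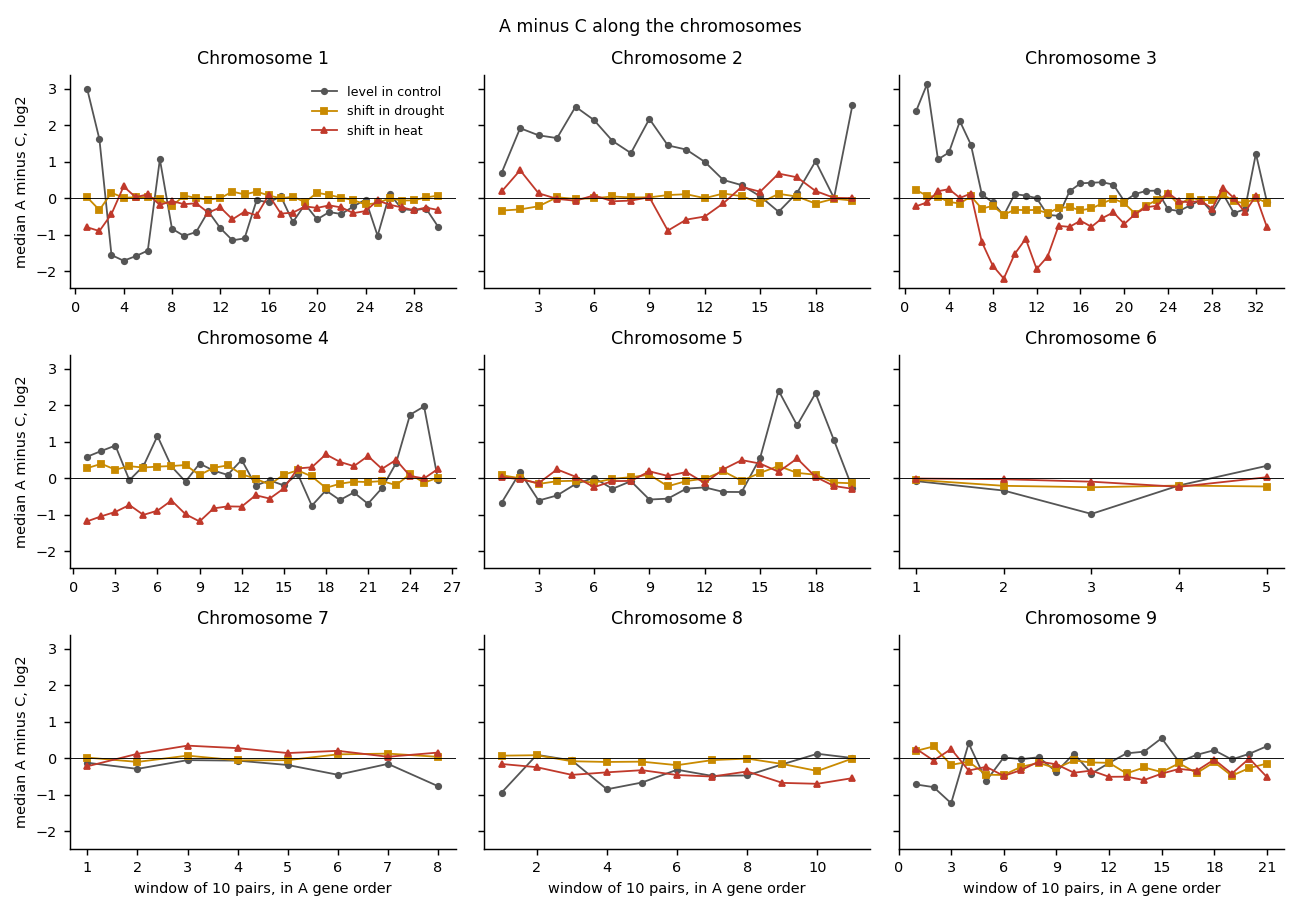
Median over windows of 10 neighbouring pairs (horizontal axis, in A gene order, chromosomes 1 to 9) of the A minus C level in control and of its shift in drought and in heat (vertical axis, log2). Heat shifts fall to -2.20 on chromosome 3 and stay near -0.90 over the first 12 windows of chromosome 4, and control levels above 1 run over the start of chromosomes 2 and 3.

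On chromosome 3, 12 windows from BnaA03g06310D to BnaA03g23400D held 120 pairs. Their median A minus C was 0.10, 0.18 and 0.05 in the control libraries, -0.22, -0.20 and -0.21 in drought and -1.20, -1.23 and -1.28 in heat. The 3 groups did not overlap, and the libraries of a group were close. Of the 120 pairs, 65 were called towards C in heat and 0 towards A, and 112 had a heat shift below 0. Both copies took part, with a median log2 change in heat of -0.53 in A copies and 0.66 in C copies. Over the tested copies of all pairs, those at 1 FPKM or more in at least 3 libraries, it was 0.04 in A and 0.29 in C. PIP2E, GSTF10, RS41, AT5G51570 and AT5G57100 lie here, 5 of the 10 largest shifts towards C among described pairs at 10 FPKM or more. HCF208, whose listed description names only a domain and no function, lies here too, with a shift of -3.15. It was under 10 FPKM on average in both copies in each group. Genes outside the pairs in the same part of the chromosomes moved likewise. The 761 other tested genes of A chromosome 3 in this range had a median heat change of -0.90, with 46.5% called lower and 3.8% higher, against 0.06, 12.0% and 10.9% in the 1946 genes elsewhere on it. On C chromosome 3, 623 other genes between the 10th and 90th percentile of the C gene numbers had a median of 0.63, with 31.8% called higher, against 0.14 and 13.1% in 2353 genes elsewhere. In drought the medians of the same genes were -0.19 in A and 0.09 in C.

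On chromosome 4, the first 12 windows, BnaA04g00070D to BnaA04g12140D, also held 120 pairs. Their median was 0.43, 0.40 and 0.47 in control, 0.63, 0.72 and 0.67 in drought and -0.40, -0.53 and -0.52 in heat. Heat was below and drought above all control libraries. In heat 50 pairs were called towards C and 1 towards A, and in drought 6 towards A and 2 towards C. AT5G39840 lies here, as does AT5G38130, which shifted towards A in heat. A copies had a median heat change of -0.41 and C copies of 0.43, and in drought 0.06 and -0.20. Over the tested copies of all pairs the heat medians were 0.04 in A and 0.29 in C, so that mainly the A copies stood apart. The 431 other tested genes of this A range had a median heat change of -0.39, against 0.06 in the 674 genes elsewhere on A chromosome 4. The 1007 other genes of the C range did not stand apart in the same way, at 0.21 against 0.53 in 916 genes elsewhere on C chromosome 4. From window 16 on, medians of chromosome 4 in heat were mostly above 0, up to 0.66.

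The runs on chromosomes 2 and 8 were shorter, with 30 pairs each. On chromosome 2 the median went from between 1.15 and 1.37 in control to between 0.62 and 0.68 in heat, and 8 pairs were called towards C and 0 towards A. C copies had a median heat change of 0.66 and A copies of 0.13, beside 0.29 and 0.04 over the tested copies of all pairs. On chromosome 8 the medians were 0.09, 0.04 and -0.0008 in control and between -0.71 and -0.60 in heat. Here 3 pairs were called towards C and 1 towards A. Over all pairs 12.9% were called towards C and 4.3% towards A, so that the calls on chromosome 8 do not stand out. The order of A and C gene numbers was only loosely matched there (Spearman correlation 0.239 over the chromosome). Drought had 2 runs of at least 3 windows beyond 0.25, on chromosome 3 towards C (6 windows, median -0.32) and on chromosome 4 towards A (5 windows, median 0.31), both within the heat runs.

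**Figure D4:**
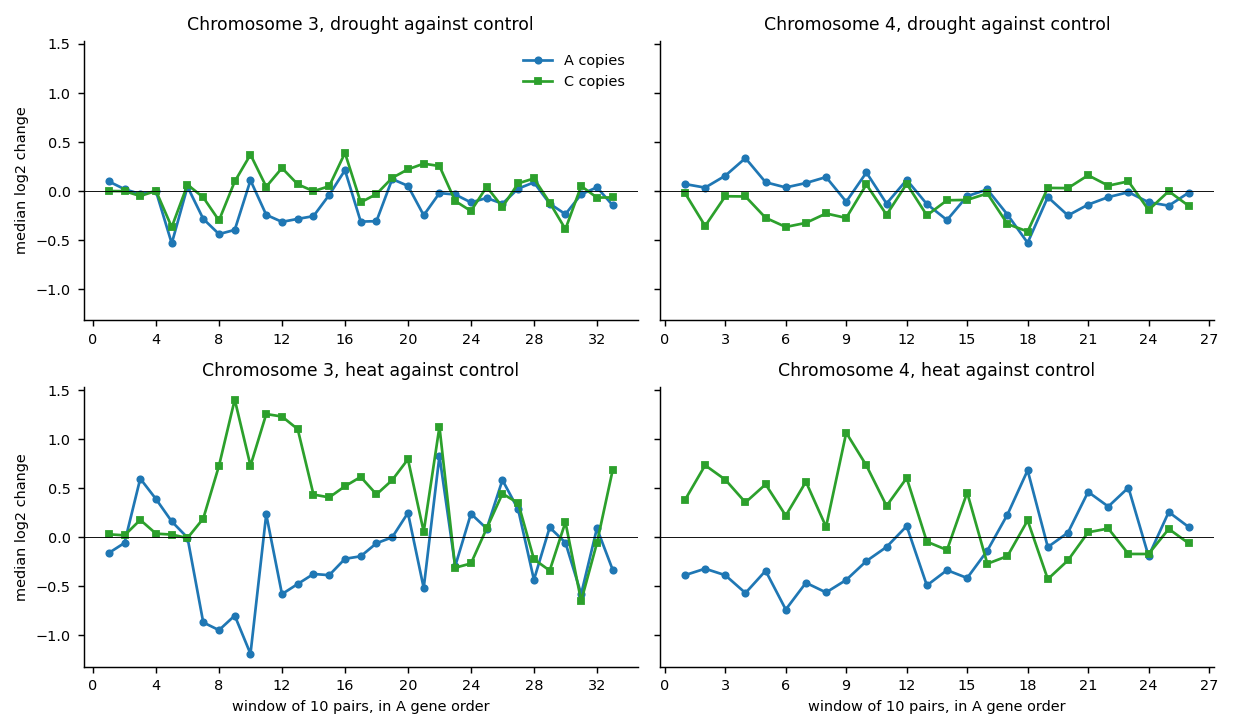
Median log2 change against control of the A copies (circles) and the C copies (squares) in windows of 10 neighbouring pairs (horizontal axis, in A gene order) on chromosomes 3 and 4, in drought (top) and heat (bottom). In heat A copies lie below and C copies above 0 over most of windows 7 to 18 of chromosome 3 and 1 to 12 of chromosome 4, with medians over those windows of -0.53 and 0.66, and -0.41 and 0.43. Over the tested copies of all pairs the heat medians were 0.04 in A and 0.29 in C.

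Control balance ran in stretches too. At least 3 consecutive windows with a median of 1 or more in size occurred 4 times. These stretches were picked for their control values, so that many calls on the same side follow from the choice. Over all pairs 21.1% were called on the A side and 16.8% on the C side. On chromosome 2, 100 pairs from BnaA02g01590D to BnaA02g16170D had a median of 1.77, with 71 called on the A side and 2 on the C side. In 26 of them the C copy was under 0.5 FPKM in all 9 libraries. The share of such C copies over all pairs is not given here. On chromosome 3 the first 60 pairs had a median of 1.75, 44 on the A side and 1 on the C side, with 20 such C copies. STN8, AT5G01650, FER1 and SUVH4 belong to it. On chromosome 5, 40 pairs from BnaA05g31220D to BnaA05g36110D had a median of 2.0, with 29 on the A side, 2 on the C side and 14 such C copies. On chromosome 1, 40 pairs from BnaA01g01770D to BnaA01g04640D had -1.67, with 29 on the C side and 1 on the A side, FUC95A and AT4G33540 among them. The medians of these 4 stretches shifted by 0.00 to 0.15 in drought and by -0.04 to 0.07 in heat.

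The first 20 pairs of chromosome 1 were picked after their values were seen, because they joined both patterns. Their median was 1.66, 1.92 and 1.79 in control, 1.95, 1.72 and 1.92 in drought and 1.07, 1.1 and 1.15 in heat. Of the 20 C copies, 13 were under 0.5 FPKM in every control library, 12 in every drought library and 2 in every heat library. SQE3, AT4G40042, AT4G36390 and ACD2 lie here. AT4G40042, a subunit of the signal peptidase, had 0, 0.283 and 0.285 FPKM from C in control, 0 in each drought library and 7.0, 6.35 and 7.65 in heat. ACD2, the red chlorophyll catabolite reductase, had 0.0993 ± 0.000475, 0.120 ± 0.0608 and 3.54 ± 0.366 FPKM from C in control, drought and heat.

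Whether the copies of a pair responded together was read from limma over all 44260 genes at 1 FPKM or more in at least 3 libraries. In drought 76 A copies were higher and 96 lower of 1660 tested (4.58% and 5.78%), and 75 C copies were higher and 71 lower of 1592 (4.71% and 4.46%), beside 5.12% and 6.87% of all genes. In heat 184 A copies were higher (11.08%) and 203 lower (12.23%), while 283 C copies were higher (17.78%) and 126 lower (7.91%), beside 14.4% and 11.2% of all genes. Of the 1461 pairs with both copies tested, drought raised both copies in 46, A alone in 22 and C alone in 24. It lowered both in 45, A alone in 33 and C alone in 18. Heat raised both copies in 97, A alone in 54 and C alone in 146, and lowered both in 84, A alone in 83 and C alone in 36. A call in 1 copy alone does not show that the copies differ: of pairs with 1 copy alone called, the shift was called in 20 raised and 7 lowered in drought, and in 85 raised and 59 lowered in heat. Opposite calls in the copies occurred in 0 pairs in drought and 16 in heat, 13 with A lower and C higher and 3 with A higher and C lower.

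Stress and leaf-function genes gave few pairs. Over all 1791 pairs the shares called, against which the lists are read, were 21.1% on the A side and 16.8% on the C side in control, 1.9% towards A and 3.24% towards C in drought, and 4.3% and 12.9% in heat. Of 23 loci of heat-shock factors, 3 were pairs, with 1 heat shift towards C and 0 other shifts called. It was AT-HSFA5, at 7.21 ± 0.274 and 3.81 ± 0.237 FPKM (A and C) in control and 3.53 ± 0.305 and 4.87 ± 0.345 in heat, a shift of -1.14 ± 0.14 (n = 3 against 3; limma adjusted p = 3.4e-05). This pair lies in the heat run of chromosome 4, where many neighbouring pairs also shifted towards C. MBF1C, a coactivator of the heat response, had 41.3 ± 1.13 and 72.5 ± 2.05 FPKM in control and 368 ± 28.3 and 345 ± 35.2 in drought, and its shift of 0.89 ± 0.06 was below the size needed for a call. Of 56 chaperone loci, 3 were pairs and 0 shifts were called. HSP23.6-MITO, a mitochondrial small heat-shock protein, had 5.30 ± 0.347 and 13.5 ± 0.660 FPKM in control, 555 and 1468 ± 93.1 in drought (A in the libraries 537, 516 and 611) and 93.4 ± 4.98 and 335 ± 3.65 in heat, with C higher in all 9 libraries. Abscisic acid and drought genes gave 1 pair of 65 loci, ABF1, with no side and no shift called. Both its copies were called higher in heat, from 0.210 ± 0.182 to 4.03 ± 0.155 FPKM in A and from 0.365 ± 0.351 to 6.48 ± 1.24 in C.

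Jasmonate genes were the largest of the locus lists, with 7 pairs of 31 loci. On the A side in control stood 2 (21.1% over all pairs), 2 were shifted towards C in drought (3.24% over all pairs) and 3 in heat (12.9%), with a median heat shift of -0.93 beside -0.19 over all pairs. OPR3, an enzyme of jasmonate synthesis in the peroxisome, had 269, 267 and 258 FPKM from A and 266, 268 and 271 from C in control. In heat A had 13.4, 12.0 and 11.6 and C 31.4, 35.4 and 30.7 FPKM, so that both fell and A fell more, a shift of -1.31 ± 0.09 (limma adjusted p = 2.0e-07). LOX4 and VSP2 were the other 2 called in heat, and both had a C copy under 5 FPKM on average in control. LOX4 lies in the heat run of chromosome 2.

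Of 3 pairs of light-harvesting and photosystem genes, LHCB2.1 alone had a called shift. PSBQ-2, of the oxygen-evolving complex, had 651 ± 14.3 and 1055 ± 11.2 FPKM in control and 1152 ± 33.0 and 2265 ± 22.1 in heat. Of 3 carbon fixation pairs, 0 shifts were called, and GAPB, a Calvin cycle dehydrogenase, went from 1652 ± 17.1 and 1058 ± 8.82 FPKM in control to 453 ± 5.58 and 498 ± 5.09 in heat, a shift of -0.78 ± 0.02. Of 4 chlorophyll synthesis and breakdown pairs, 3 were on the A side in control (21.1% over all pairs) and 1, ACD2, shifted towards C in heat (12.9% over all pairs). CYP83B1 and TL29 were the only pairs of the glucosinolate and antioxidant lists, with no side and no shift called, and the clock list had 0 pairs. Both copies of TL29, a thylakoid protein related to ascorbate peroxidase, were called lower in drought and higher in heat, and both copies of CYP83B1, of indole glucosinolate synthesis, were called lower in drought.

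Larger groups could be formed from protein descriptions. Of 88 pairs described by the word kinase, some of them kinase regulators, 14 were on the A side and 14 on the C side in control. In heat 14 were shifted towards C and 0 towards A, and in drought 1 towards C. The median heat shift was -0.23, and both it and the share towards C were near those of all pairs (-0.19 and 12.9%). MKP1, a phosphatase of mitogen-activated kinases that the word also takes in, had 6.19 ± 0.507 FPKM from C in control and 19.9 ± 0.666 in heat, with A between 9.53 and 10.9 in heat and up to 14.0 in control. The MKP1 pair lies in the heat run of chromosome 4. Of 17 ribosomal protein pairs, 3 were on the A side and 7 on the C side in control, against 21.1% and 16.8% over all pairs, and in heat 5 were shifted towards C and 0 towards A, against 12.9% and 4.3%. Pentatricopeptide repeat proteins, which process organelle RNA, gave 29 pairs with 3 on the A side and 2 on the C side, and in heat 2 were shifted towards A and 0 towards C, where all pairs had 4.3% and 12.9%. Transfer RNA synthetases gave 3 pairs, 2 on the C side in control, with 0 shifts called, and the word proteasome 1 pair, AT5G15610, on the A side.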

How the data were processed

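Polyadenylated RNA of 9 leaf samples was analysed. HISAT2 is the aligner named in the submitters' processing notes. Its release, the genome build, the annotation and the read counter are each "not given in the sources used here". No unit is stated for the deposited table. Its values were taken as FPKM, since for values under 1000 reads at least 99.4% of deposited FPKM, multiplied by coding length (from the protein length), fall within 0.01 of a whole number of library-specific steps. How reads of near-identical copies were split is not given, so the balance within a pair is uncertain where copies are close. Column names were assigned to the Brassica napus samples because the table holds Brassica napus genes.

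Members, gene lists, tests and alternatives were chosen with earlier results of these data known. A minus C on log2(FPKM + 1), pseudocount 1, was fitted with limma 3.58.1 in R 4.3.3 (1 mean per group, mean-variance trend, robust moderation), with Benjamini-Hochberg adjustment over 1791 pairs. A call needs an adjusted p under 0.05 and a size of 1. Copies were called in the same way over 44260 genes. The +1 understates changes of low copies. Library medians were compared by exact permutation. Named pairs are the 8 largest control differences on each side and the 10 largest shifts each way among called pairs with a description, at least 10 FPKM in the highest mean and groups apart, and 2 pairs per list, those with the smallest adjusted p for a shift. The fit was tested on simulated data. Gene positions are the numbers in the gene names. Sequences are not shown. Summaries and figures used Python 3.11.15 with Matplotlib 3.10.9, pandas 2.3.3 and NumPy 2.4.6, and R's data.table package (1.17.8).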

Additional observations from a re-analysis of the deposited data

Results flagged for a closer look

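In 16 pairs the A copy and the C copy were both called in heat, in opposite directions. Opposite calls from the same values fix the sign of the A minus C shift and make it large. Its adjusted p (limma, at most 2.4e-06) is therefore no separate support. On chromosome 3, 10 such pairs had A lower and C higher: PIP2E (-7.40), GSTF10 (-3.56), AT5G57100 (-3.22), HCF208 (-3.15), AT5G51570 (-2.97), RS41 (-2.95), AR781 (-2.66), AT5G55580 (-2.55), AT2G30320 (-2.46) and AT2G35920 (-2.37). All 10 lie in the run of 12 windows described above. The other 3 with A lower and C higher were SQE3 (-4.15) at the start of chromosome 1 and AT3G60150 (-2.39) and MIS12 (-2.39) on chromosome 4. A was higher and C lower in AT5G38130 (4.98) and AT2G26190 (2.35) on chromosome 4 and AT5G13410 (3.33) on chromosome 2. No cause was tested.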

How the results depend on the processing

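With at least 1 FPKM in both copies, calls were 205 (control, A side), 22 and 34 (drought, A and C) and 49 (heat, A) of 1373 pairs. At 5 FPKM in either copy, drought gave 21 towards A. Without a fold threshold calls were 716 and 691 in control (A and C), 143 and 201 in drought and 254 and 596 in heat. With pairs of different chromosome number added they were 603 and 643, 71 and 105, and 172 and 375 of 3448. Without chromosome 3, chosen after seeing the data, heat gave 146 towards C and the drought median changed sign to 0.0104; fewer pairs were tested there. A pseudocount of 0.1 gave 145 A and 135 C copies lower in drought and 282 A copies higher in heat; the cause was not tested. Leaving out each library in turn gave 376 to 381 and 296 to 307 pairs in control, 34 to 40 and 57 to 63 in drought and 76 to 82 and 224 to 236 in heat. Copies called higher and lower were then, in drought, 76 to 81 and 89 to 99 (A) and 73 to 80 and 70 to 79 (C), and in heat 184 to 193 and 201 to 211 (A) and 276 to 286 and 126 to 137 (C). Same-numbered replicates did not deviate together (r of -0.041 to 0.026, and 2 of 9 libraries correlated best with their own number). The replicate block gave 378 and 300, 34 and 58, and 77 and 231 pairs. Of named pairs, 4 shifts lost their call, all with a pseudocount of 0.1: VSP2 in drought and heat, AT3G03270 and NPC3. TMM factors, quantile normalization, no filter, coding lengths within 10%, no moderation and only the groups compared kept all counts of pairs within 1.5 times. Copy calls in heat moved more: TMM factors gave 143 A copies higher and 255 lower, and 217 C copies higher and 169 lower. Quantile normalization gave 158 and 237 (A) and 240 and 151 (C). The excess of C copies called higher over lower was smaller with either. Copies with few reads limit the control difference.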
